A study of Mus musculus with 15 samples.

Results

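The miR-106b-25 cluster is a group of microRNAs (miRNAs) cut from 3 neighbouring hairpins, and 4 of its mature miRNAs were followed here by name: mmu-miR-106b-5p, mmu-miR-106b-3p, mmu-miR-93-5p and mmu-miR-25-3p. They are 4 of the 1915 mature miRNAs in the deposited table, of which 867 had any count and 351 had enough counts to be tested, all 4 members among them. Small RNA was sequenced from pancreatic acini, the enzyme-secreting units of the exocrine pancreas, of C57BL/6 mice aged 7 to 8 weeks. The 15 libraries fell into 5 groups of 3, namely control acini with no agent, caerulein at 100 nM (described as a pathological dose), caerulein at 100 pM (described as a physiological dose), and 2 doses of the bile acid TLC-S, 62.5 uM and 250 uM. Caerulein, the other agent, is a peptide ligand of the cholecystokinin receptor on acinar cells. Each library was made from 1 ug of RNA pooled from 3 acinar preparations, so that a library averages over preparations. Whether the 3 libraries of a group come from separate pools is not stated. A p-value therefore measures the spread between libraries, part or all of which may be technical. The question put to the members was whether either agent, at either dose, came with a different level of the cluster.

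The 3 hairpins lie in a row on 1 primary transcript inside an intron of Mcm7, which encodes a subunit of the helicase that unwinds DNA for replication. Each hairpin is processed by Drosha and Dicer into a 5p and a 3p arm, and the arm kept in Argonaute pairs with messenger RNAs mainly through its seed, the bases near its 5′ end. The cluster is a paralogue of miR-17-92 and is known in many tissues for E2F-driven transcription and for repression of the cell-cycle inhibitor Cdkn1a and the pro-apoptotic Bcl2l11.

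The mature sequences below are those of the 4 members and of the 3 most abundant miR-17-92 relatives with the same seeds, because the members differ in their seeds and share them with miRNAs of another cluster. Sequences are from RefSeq on GRCm38.p6, written 5′ to 3′, with capitals marking the seed at bases 2 to 8.
miR-106b-5p: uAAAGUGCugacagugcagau
miR-93-5p: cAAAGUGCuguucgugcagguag
miR-17-5p: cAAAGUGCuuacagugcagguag
miR-20a-5p: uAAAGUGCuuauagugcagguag
miR-25-3p: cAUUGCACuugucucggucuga
miR-92a-3p: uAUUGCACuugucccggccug
miR-106b-3p: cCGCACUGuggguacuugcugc

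The 4 members thus carried 3 seeds. miR-106b-5p and miR-93-5p shared AAAGUGC, and they were identical at 16 of the 21 positions compared from the 5′ end. miR-25-3p carried AUUGCAC and was identical to miR-106b-5p at 5 of 21 positions, although both come from 1 transcript. miR-106b-3p, the opposite arm of the miR-106b-5p hairpin, carried CGCACUG, a seed found in no other miRNA of the table with a RefSeq sequence (1623 of the 1915 names matched, and 312 of the 351 tested).

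On GRCm38 the hairpins lie on the minus strand, Mir106b at chr5:138165737-138165818, Mir93 at chr5:138165523-138165610 and Mir25 at chr5:138165321-138165404. They span 498 bases, with 126 bases between Mir106b and Mir93 and 118 bases between Mir93 and Mir25. In the GENCODE M21 annotation all 3 sit in intron 13 of a 15-exon Mcm7 transcript (gene at chr5:138164583-138172422, same strand), and Mir93 and Mir25 also fall inside an exon of 1 Mcm7 transcript annotated as a retained intron.

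Total counts ranged from 535473 to 5087728 per library, with a median of 1953104. The 4 acinar marker miRNAs (miR-148a-3p, miR-216a-5p, miR-216b-5p and miR-217-5p) together made up between 238400 and 787400 CPM (counts per 1000000, after TMM scaling) in every library, and the ranges of the groups overlapped. The 4 islet and neuroendocrine markers summed to between 79270 and 142200 CPM. This was mostly miR-375-3p, at 66880 to 123000 CPM, with miR-7a-5p at 7209 to 18800. The other markers of that list were low, miR-184-3p at 130 to 441 CPM and miR-129-5p at 1.38 to 19.1. The 4 leukocyte markers summed to between 36.7 and 102 CPM. Most of that sum was miR-150-5p, at 31.5 to 92.1 CPM, whereas miR-142a-3p and miR-142a-5p were each at 0 in at least 1 library. The 4 mesenchymal markers summed to between 7826 and 17220 CPM, and the 3 erythrocyte markers to between 85.6 and 172 CPM. The 2 endothelial markers, miR-126a-3p and miR-126a-5p, summed to between 6721 and 8514 CPM in control. Their sums lay below that range in caerulein 100 nM (3401 to 6247) and, narrowly, in TLC-S 62.5 uM (4182 to 6674). They overlapped it in caerulein 100 pM (4851 to 8768) and TLC-S 250 uM (4454 to 7896). The share of all tested miRNAs that lay wholly below control in these comparisons is not given here, so the separation is only described. In bulk RNA, fewer cells of a type and less RNA per cell cannot be told apart. All levels are given as CPM. The members are 21 to 23 bases long and a read covers 1 mature miRNA, so CPM was also used to set the members side by side. Whether different sequences entered a library equally well was not tested. Comparisons between miRNAs, arms or seeds below are therefore of reads, and need not give the amounts in the cells.

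The members had moderate and unequal read counts, although they derive from a common transcript. Together they made up 0.138% ± 0.0207 (SD, n = 15) of all counts. miR-25-3p was the most abundant, at 855 CPM on average and rank 60 of the 867 detected miRNAs. miR-93-5p followed at 328 CPM (rank 94), miR-106b-5p at 139 CPM (rank 129) and miR-106b-3p at 46.5 CPM (rank 175). Within the cluster, miR-25-3p held 62.4% ± 3.92 of the members' counts, miR-93-5p 24.0% ± 3.51, miR-106b-5p 10.3% ± 2.99 and miR-106b-3p 3.36% ± 0.784 (SD, n = 15 each). The order miR-25-3p, miR-93-5p, miR-106b-5p, miR-106b-3p held in each of the 15 libraries.

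**Figure D1:**
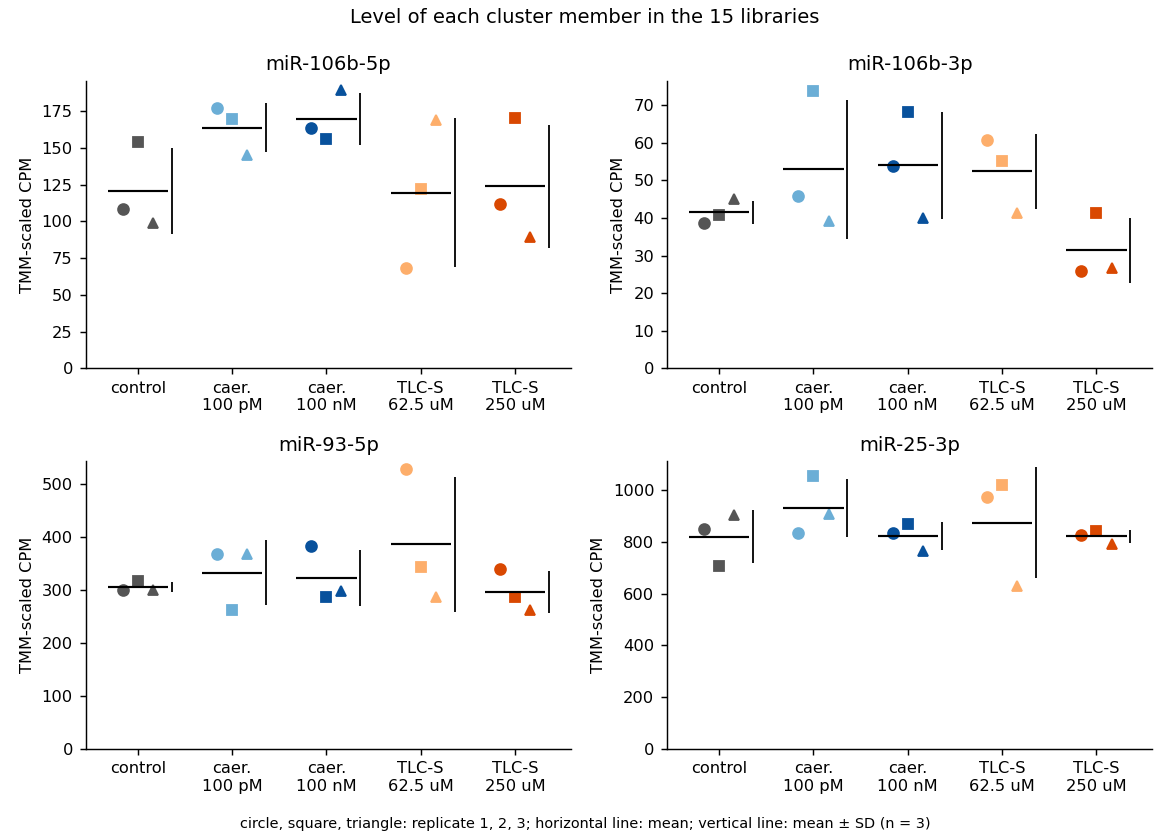
Level of each member in the 15 libraries, as TMM-scaled CPM on a linear axis from 0, by group; circles, squares and triangles are replicates 1, 2 and 3, the horizontal line is the group mean and the vertical line the mean ± SD (n = 3). The groups overlap widely for miR-93-5p and miR-25-3p, the 3 caerulein 100 nM libraries of miR-106b-5p lie just above the highest control, and miR-106b-3p is lower in all 3 TLC-S 250 uM libraries than in the TLC-S 62.5 uM libraries.

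miR-106b-5p is the 5p arm of the first hairpin and a member of the AAAGUGC seed family. It stood at 109, 154 and 98.9 CPM in control replicates 1, 2 and 3. In caerulein 100 nM it stood at 164, 156 and 189 CPM, and in caerulein 100 pM at 177, 169 and 145 CPM. The 3 libraries with the high caerulein dose were all above the 3 controls, by a margin of under 2 CPM between the nearest pair, whereas the low-dose libraries overlapped the controls. In TLC-S 62.5 uM the values were 68.1, 122 and 169 CPM, and in TLC-S 250 uM they were 112, 170 and 89.1 CPM. Both TLC-S groups therefore spanned the whole control range and beyond. The group means ran from 170 ± 17.6 CPM in caerulein 100 nM and 164 ± 16.7 in caerulein 100 pM to 124 ± 42.0 in TLC-S 250 uM, 121 ± 29.4 in control and 120 ± 50.4 in TLC-S 62.5 uM (SD, n = 3 each), and neighbours in that order overlapped.

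The largest difference of miR-106b-5p was that between caerulein 100 nM and control, a log2 difference of 0.50 (SE 0.30, 95% interval -0.13 to 1.12; edgeR quasi-likelihood test, Benjamini-Hochberg adjusted p = 0.985). It did not pass the threshold of 0.05. Of all 351 miRNAs tested, 9 (2.56%) had the 3 caerulein 100 nM libraries above the 3 controls, and 1 of the 4 members was among them. In the same comparison the endothelial markers had log2 differences of -0.71 for mmu-miR-126a-3p and -0.90 for mmu-miR-126a-5p (edgeR adjusted p = 0.985 and 0.424), and their part in the values of miR-106b-5p was not tested. For caerulein 100 pM the log2 difference of miR-106b-5p was 0.44 (SE 0.30, edgeR adjusted p = 0.942), but 0.17 with library totals in place of TMM and 0.24 or 0.22 in limma on the deposited RPM. Against control, TLC-S at 250 uM gave a log2 difference of 0.03 and TLC-S at 62.5 uM one of -0.02, each with an interval that reached beyond 0.5 in both directions. The value for TLC-S 62.5 uM rested on replicate 1, and without that library it was 0.29.

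miR-106b-3p is the other arm of the same hairpin and the least abundant member, with its lowest count, 33, in TLC-S 250 uM replicate 1 (26.0 CPM, exact Poisson 95% interval 17.9 to 36.5, which covers counting error only). Its control libraries were close together, at 38.8, 40.8 and 44.9 CPM. It stood at 53.9, 68.2 and 39.9 CPM in caerulein 100 nM and at 45.9, 73.9 and 39.1 CPM in caerulein 100 pM. Replicate 2 was the high library of both caerulein groups, and replicate 3 of each was level with the controls. In TLC-S 62.5 uM the values were 60.8, 55.1 and 41.4 CPM, and in TLC-S 250 uM they were 26.0, 41.3 and 26.8 CPM. The highest library of the 250 uM group and the lowest of the 62.5 uM group differed by less than 0.1 CPM, so these groups were barely separate.

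Against control, miR-106b-3p differed on the log2 scale by 0.35 (SE 0.32) with caerulein at 100 nM and 0.36 (SE 0.32) at 100 pM, by 0.34 (SE 0.31) with TLC-S at 62.5 uM and by -0.40 (SE 0.32) at 250 uM. None passed the edgeR test, with adjusted p-values of 0.985, 0.942, 0.880 and 0.999 in that order. Without replicate 2 of caerulein 100 nM the first of these was 0.15, and without replicate 3 it was 0.54. The value for caerulein 100 pM was -0.012 without its replicate 2, and 0.11 with library totals and 0.074 or 0.065 in limma. That for TLC-S 250 uM was -0.24 without its replicate 1 and -0.61 without its replicate 2. Between the TLC-S doses the log2 difference was -0.75 (SE 0.32, 95% interval -1.41 to -0.09), a level at 250 uM of 0.596 times that at 62.5 uM. Its p was 0.0282 before adjustment and 0.467 after it (edgeR, Benjamini-Hochberg over 351 miRNAs), so it was not called. It was the only 1 of the members' 24 pairwise differences with an unadjusted p under 0.05 in the edgeR fit, in a comparison where 31 of 351 miRNAs had one. In that comparison 21 of 351 miRNAs (5.98%) had all 3 libraries at 250 uM below all 3 at 62.5 uM, and of the members only miR-106b-3p did. Over 17 other ways of fitting or leaving out a library the difference stayed negative, from -0.98 to -0.58, with edgeR, DESeq2 or limma adjusted p-values from 0.215 to 0.960.

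miR-93-5p comes from the middle hairpin and shares its seed with miR-106b-5p. Its control libraries lay at 299.9, 316 and 300.1 CPM (mean 306 ± 9.40 CPM, SD, n = 3). It stood at 384, 287 and 298 CPM in caerulein 100 nM and at 368, 262 and 368 CPM in caerulein 100 pM. Both caerulein groups had libraries above and below the controls. In TLC-S 62.5 uM it stood at 529, 344 and 286 CPM, and in TLC-S 250 uM at 339, 286 and 261 CPM. The 529 CPM of TLC-S 62.5 uM replicate 1 was its highest value in the series, in the library where miR-106b-5p had its lowest. The log2 differences from control were 0.08 and 0.12 with caerulein at 100 nM and 100 pM, and -0.05 and 0.34 with TLC-S at 250 uM and 62.5 uM (SE 0.26 each), and edgeR adjusted p-values ran from 0.880 to 0.999. Without TLC-S 62.5 uM replicate 1 the last of these was 0.06. The value for caerulein 100 pM was 0.21 without its replicate 2 and 0.056 without its replicate 3. Between the TLC-S doses miR-93-5p differed by -0.39 (edgeR adjusted p = 0.884), and by -0.097 without TLC-S 62.5 uM replicate 1.

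miR-25-3p, from the last hairpin, is the member with the AUUGCAC seed of the miR-92a family. It stood at 849, 708 and 906 CPM in control, at 836, 871 and 765 CPM in caerulein 100 nM and at 834, 1055 and 907 CPM in caerulein 100 pM. The high-dose caerulein libraries all fell inside the control range. In TLC-S 62.5 uM it stood at 974, 1022 and 630.5 CPM, and in TLC-S 250 uM at 829, 843 and 793 CPM, the latter again inside the control range. Group means were 932 ± 112 CPM in caerulein 100 pM, 876 ± 214 in TLC-S 62.5 uM, 824 ± 54.1 in caerulein 100 nM, 822 ± 25.6 in TLC-S 250 uM and 821 ± 102 in control (SD, n = 3 each), an order in which all neighbours overlapped. Its log2 differences from control were 0.0042 and 0.18 with caerulein at 100 nM and 100 pM, and 0.00074 and 0.09 with TLC-S at 250 uM and 62.5 uM (SE 0.23 each; edgeR adjusted p 0.942 to 0.999). The value for caerulein 100 pM was 0.031 without its replicate 2 and 0.30 without its replicate 1. The 95% interval for caerulein 100 nM ran from 0.721-fold to 1.40-fold, and that for TLC-S 250 uM from 0.719-fold to 1.39-fold.

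**Figure D2:**
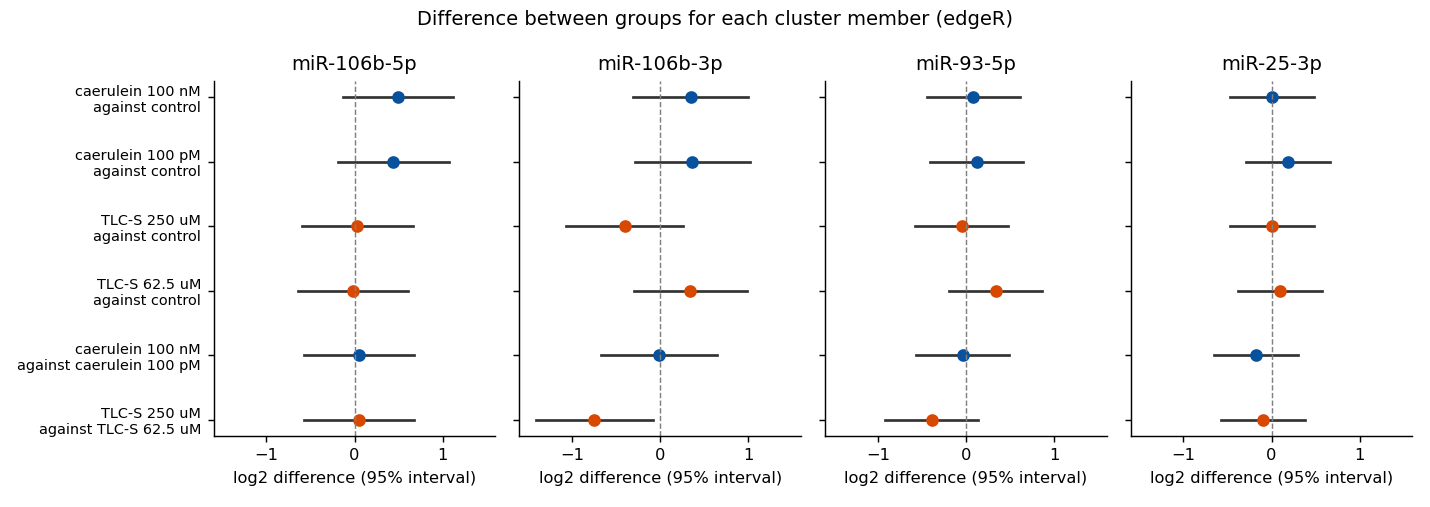
Log2 difference between groups for each member, from the edgeR fit, with its 95% interval; points right of the dashed line at 0 are higher in the first-named group. Of the 24 intervals, that of miR-106b-3p between the TLC-S doses alone lies to one side of 0, from -1.41 to -0.09.

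Counted over the cluster, no member passed the edgeR test at an adjusted p of 0.05 in any comparison. Against control this was 0 of 4 with caerulein 100 nM and 0 of 4 with caerulein 100 pM, where 0% of the 351 miRNAs were called in each, and 12 and 24 miRNAs, none a member, had an unadjusted p under 0.05. It was 0 of 4 with TLC-S 250 uM, where 0% were called and 4 miRNAs, again no member, had an unadjusted p under 0.05. It was 0 of 4 with TLC-S 62.5 uM, where 0.57% were called and 26 miRNAs, no member among them, had an unadjusted p under 0.05. Between the caerulein doses it was 0 of 4 beside 0%, with 6 miRNAs and no member under 0.05 unadjusted, and between the TLC-S doses 0 of 4 beside 1.14%. An F test over all 5 groups called 0 of 4 beside 0.855%, with edgeR adjusted p-values of 0.904 for miR-106b-5p, 0.831 for miR-106b-3p, 0.980 for miR-93-5p and 0.984 for miR-25-3p. DESeq2 also called none of the 4 in any comparison, and it called 1 of all miRNAs for caerulein 100 nM, where edgeR called 0.

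The sign of the members' differences was the same in both caerulein comparisons under TMM scaling, and these share their controls. With 100 nM the 4 values were all above 0 (3 of 4 with RLE size factors, DESeq2's scaling, where miR-25-3p stood at -0.010), with a median of 0.21 on the log2 scale, beside 52.7% of all tested miRNAs above 0 and a median of 0.03. With 100 pM they were all above 0 with a median of 0.27, beside 51.3% and a median of 0.01, but scaling by library totals, which moved the median of all miRNAs by -0.24, put miR-93-5p at -0.11 and miR-25-3p at -0.05. With TLC-S 62.5 uM 3 of 4 were above 0 (median 0.22, all miRNAs -0.0099; 4 of 4 with RLE or library totals), and with TLC-S 250 uM 2 of 4 (median -0.02, all miRNAs -0.03). Between caerulein doses 1 of 4 was above 0 (median -0.03), but 4 of 4 with library totals, which moved the median of all miRNAs by 0.29. Between TLC-S doses it was 1 of 4 (median -0.24), and 0 of 4 with library totals. The summed level of the members was 1289 ± 65.8 CPM in control, 1371 ± 73.2 in caerulein 100 nM, 1481 ± 70.1 in caerulein 100 pM, 1434 ± 270 in TLC-S 62.5 uM and 1272 ± 90.0 in TLC-S 250 uM (SD, n = 3 each). As a share of all counts, without TMM scaling, the sum was 0.130% ± 0.0263 in control and 0.126% ± 0.0144 in caerulein 100 pM. It was 0.144% ± 0.00821 in caerulein 100 nM, 0.156% ± 0.0232 in TLC-S 62.5 uM and 0.133% ± 0.0246 in TLC-S 250 uM. Caerulein 100 pM was thus the highest group under TMM and the lowest by share of counts.

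The spread within groups differed between the members. The SD of log2 CPM within groups was 0.21 for miR-25-3p, the 19th smallest of 351, and 0.28 for miR-93-5p, the 58th, beside a median of 0.45 over all tested miRNAs. It was 0.35 for miR-106b-3p and 0.41 for miR-106b-5p (99th and 153rd). The highest library was 1.67 times the lowest for miR-25-3p, 2.02 times for miR-93-5p, 2.78 times for miR-106b-5p and 2.84 times for miR-106b-3p. At these spreads the 95% half-width of a member's log2 difference was at most 0.66, so a difference of less than that could not be told from 0 for the more variable members.

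Ratios of members within a library need no scaling between libraries and compare products of 1 primary transcript. The ratio of miR-106b-3p to miR-106b-5p, the arms of 1 hairpin, had a median of 0.301 and ran from 0.211 in a caerulein 100 nM library to 0.894 in TLC-S 62.5 uM replicate 1. The other 14 libraries lay between 0.211 and 0.454. The ratio of miR-93-5p to miR-106b-5p, which share a seed, was 7.77 in that same library and between 1.55 and 3.04 in the other 14. The ratio of miR-25-3p to miR-93-5p ran from 1.84, also in that library, to 4.03 in caerulein 100 pM replicate 2. TLC-S 62.5 uM replicate 1 thus stood apart in both ratios over miR-106b-5p (68.1 CPM from 141 counts), whereas in the ratio of miR-25-3p to miR-93-5p it lay near the next library at 2.18, and caerulein 100 pM replicate 2 was the one set off, with 3.04 as the next highest.

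**Figure D3:**
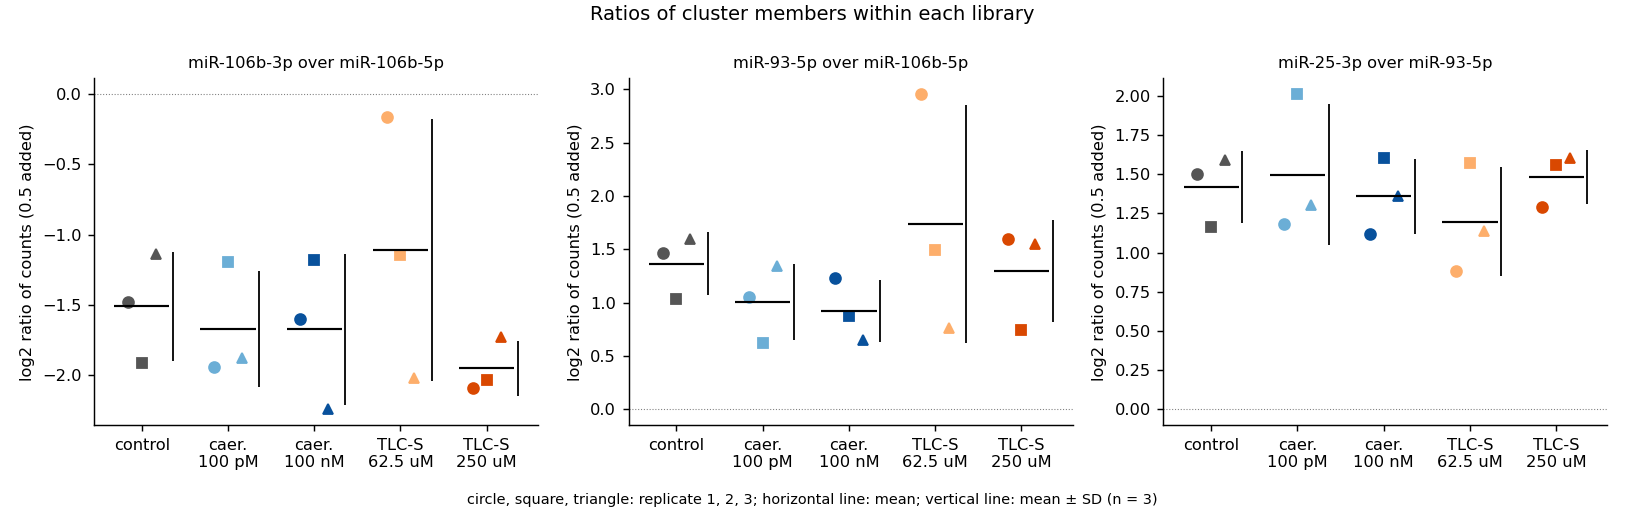
Log2 ratio of the counts of 2 members within each library (0.5 added to each count), by group; symbols are replicates 1, 2 and 3, the horizontal line is the mean and the vertical line the mean ± SD (n = 3). TLC-S 62.5 uM replicate 1 is the highest point for miR-106b-3p over miR-106b-5p (ratio 0.894) and for miR-93-5p over miR-106b-5p (ratio 7.77).

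The 12 differences of a mean log2 ratio between a treated group and control were put to an exact two-sided permutation test. Its smallest possible p with 3 against 3 is 0.1, so none could pass the threshold of 0.05, whatever the values. The lowest exact p was 0.2, for miR-106b-3p over miR-106b-5p in TLC-S 250 uM (log2 difference -0.44) and for miR-93-5p over miR-106b-5p in caerulein 100 nM (-0.45), and every Benjamini-Hochberg adjusted exact p was 0.8. In TLC-S 62.5 uM the difference was 0.40 for miR-106b-3p over miR-106b-5p and 0.37 for miR-93-5p over miR-106b-5p. Both changed sign without replicate 1, to -0.07 and -0.24. Between the TLC-S doses, where miR-106b-3p differed by -0.75 and miR-106b-5p by 0.05, the ratio of the arms ran from 0.232 to 0.301 at 250 uM and from 0.245 to 0.894 at 62.5 uM, and that difference in the ratio was not tested.

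The counts of the 3 hairpins were divided unequally between their arms. The 3p arm held 25.5% ± 7.71 (SD, n = 15) of the Mir106b counts, with a range from 17.4% to 47.2%. At Mir93 the minor arm, miR-93-3p, held 1.52% ± 0.837, and at Mir25 the minor arm, miR-25-5p, held 0.334% ± 0.319 with 79 counts over all 15 libraries. Mir106b was therefore the hairpin of the cluster with an appreciable share in both arms. miR-93-3p had enough counts to be tested and was called in none of the 6 pairwise comparisons (edgeR). miR-25-5p, at 0 to 17 counts per library, had too few.

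For the 2 seeds that members share with other tested miRNAs, the members held the smaller part of the summed CPM. miR-106b-3p was the only one with its seed among the tested miRNAs that had a RefSeq sequence. Of the 7 miRNAs in the table with the seed AAAGUGC, 4 were tested, and the members miR-93-5p and miR-106b-5p made up 34.1% of the summed mean CPM of that seed. miR-20a-5p of miR-17-92 held the largest share, at 761 ± 237 CPM (SD, n = 15), whereas miR-17-5p, at 141 ± 44.0 CPM, was level with miR-106b-5p. Of the 6 miRNAs with the seed AUUGCAC, 4 were tested, and miR-25-3p made up 22.2%. miR-92a-3p, made by miR-17-92 and by the related miR-106a-363 cluster, reached 2873 ± 490 CPM. miR-106b-5p was identical to miR-17-5p and to miR-20a-5p at 18 of 21 positions, and miR-25-3p to miR-92a-3p at 18 of 21, and how reads that fit more than 1 of them were assigned is not given in the sources used here.

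**Figure D4:**
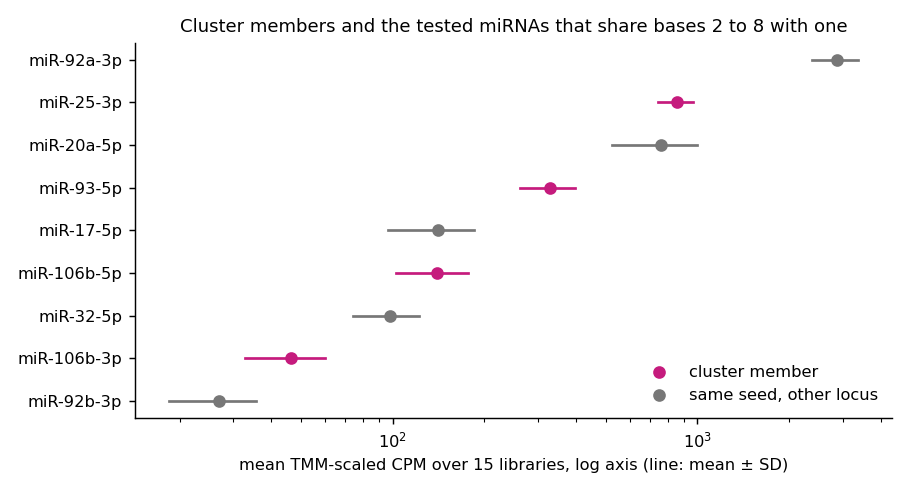
Mean level of the 4 members and of the tested miRNAs that share a member's seed, over 15 libraries, in TMM-scaled CPM on a log axis (line: mean ± SD). miR-92a-3p lies above miR-25-3p, and miR-20a-5p above miR-93-5p, so that a miRNA from outside the cluster has the highest CPM of each shared seed.

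Of the paralogous miR-17-92 cluster, 7 of the 10 listed miRNAs were tested and none was called in any comparison, in either direction (edgeR). With caerulein 100 pM all 7 were below 0 under each of the 4 scalings tried, with a median log2 difference of -0.38 under TMM, whereas the 4 members of miR-106b-25 were all above 0 there under TMM and 2 of 4 with library totals. With caerulein 100 nM 2 of 7 were above 0 (median -0.20; 1 of 7 with RLE), with TLC-S 250 uM 1 of 7 (median -0.18) and with TLC-S 62.5 uM 3 of 7 (median -0.02; 4 of 7 with RLE and 5 of 7 with library totals). The difference between the paralogous clusters was not tested. miR-17-3p had the lowest value in caerulein 100 pM, a log2 difference of -1.24 (SE 0.58, edgeR adjusted p = 0.722). It had few reads, at 3 to 60 counts per library and 7.97 CPM on average. The next lowest there, miR-18a-5p at -1.19, had 1 to 79 counts per library. The other paralogue, miR-106a-363, had none of its 4 listed miRNAs tested, with at most 9 counts in a library for any of them (miR-20b-5p). miR-92a-3p was listed under miR-17-92, and its counts could not be divided between its loci.

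How steady the ratio of 2 miRNAs was across libraries was measured as the SD, over the 15 libraries, of the log2 ratio of their CPM. A small SD arises when both moved in parallel, but also when both hardly varied, and the measure does not separate these. Points of this measure share library and depth, and it is given as a description. miR-25-3p and miR-93-5p had the steadiest ratio of the members, with an SD of 0.28. They were also the members that varied least, with an SD of log2 CPM over all libraries of 0.19 and 0.26. miR-25-3p ranked 21 of 350 in the order for miR-93-5p, whose nearest were miR-200b-3p (SD 0.16), miR-30d-5p (0.17) and miR-23a-3p (0.17). In the order for miR-25-3p, miR-93-5p ranked 30, and the nearest were miR-30d-5p (0.21), miR-27b-3p (0.22) and miR-200c-3p (0.22). That order was not firm, since miR-30d-5p came first in 6 of the 15 orders with 1 library left out, and miR-93-5p ranked from 16 (without caerulein 100 pM replicate 2) to 36 (without control replicate 1). For miR-93-5p, miR-200b-3p came first in 12 of 15.

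The ratio of the arms of Mir106b was less steady, with an SD of 0.55, or 0.39 without TLC-S 62.5 uM replicate 1. Each arm also varied more by itself, with an SD of log2 CPM over all libraries of 0.43. In the order for miR-106b-3p, miR-30a-5p (0.26), miR-218-5p (0.32) and miR-101a-3p (0.35) came first, miR-25-3p ranked 8 and miR-106b-5p ranked 107. In the order for miR-106b-5p, miR-200b-5p (0.21), miR-362-3p (0.27) and miR-29c-5p (0.28) came first, and its cluster mates ranked 96 (miR-25-3p), 120 (miR-106b-3p) and 146 (miR-93-5p) of 350, with SDs from 0.53 to 0.59 beside a median of 0.63. These ranks leaned on TLC-S 62.5 uM replicate 1. Without it, an alternative chosen after seeing the data, the mates ranked 67, 48 and 38 in the same order, and miR-106b-5p ranked 18 instead of 107 in the order for miR-106b-3p. Leaving out any 1 library put miR-25-3p between rank 9 and 28 in the order for miR-93-5p.

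**Figure D5:**
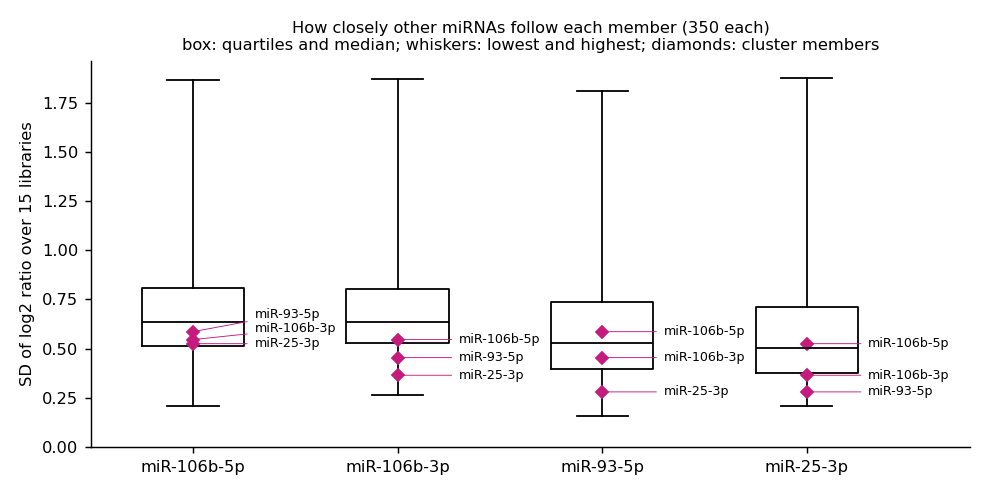
SD over 15 libraries of the log2 ratio between each member and the 350 other tested miRNAs, on a linear axis (box: quartiles and median, whiskers: lowest and highest); diamonds are the other cluster members. miR-25-3p and miR-93-5p lie near the low end of each other's distribution (SD 0.28), while the mates of miR-106b-5p lie at 0.53 to 0.59, inside the box.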

How the data were processed

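Small RNA of 15 libraries was analysed from tables deposited by the authors. Per the labels' protocols, total RNA came from a mirVana extraction and was read on an Illumina machine. The submitters' processing notes name Bowtie, cutadapt and the build GRCm38 (mm10), without versions. How reads were counted, including those with several matches, is not given in the sources used here. Among the tables, the deposited mature one holds estimated counts per miRNA, which are whole numbers; the deposited per-precursor table also holds estimated counts, of which 74% of values above 0 are whole (within 1e-06), and the authors' RPM table (reads per 1000000) matched those counts to within 0.708. The RPM served for limma alone.

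Groups came from the titles. The mature counts were fitted with edgeR 4.0.16 (R 4.3.3; TMM scaling, filterByExpr with a minimum count of 10 and total of 15, quasi-likelihood test, 5 group means, 10 residual degrees of freedom), with Benjamini-Hochberg adjustment over 351 miRNAs and a threshold of 0.05. DESeq2 1.42.0 and limma 3.58.1 (log2 of RPM plus 1 or 10) were alternatives, beside other scalings, filters, 2 groups alone, a block and leaving out each library. The code was tested on simulated data. Ratios had 0.5 added to each count, and likeness used a prior count of 0.5. No replicates were duplicates (chi-square per degree of freedom at least 54.9). Named miRNAs were the 4 members, their other arms, the miRNAs of the 2 paralogous clusters, those sharing a seed, and for each member the 3 most alike. The members and lists were chosen with earlier results of these data known. The sample codes in the titles fall into 3 series, each with a library of every group. The labels state no pairing, so the main fit has no block, and a block by series was an alternative. Deviations from group means correlated with r from -0.104 to 0.364 over 30 pairs within a series. Over 60 pairs between series r ran from -0.38 to 0.218. The main fit may thus leave out a pairing.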

Additional observations from a re-analysis of the deposited data

How the results depend on the processing

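No member was called by edgeR, DESeq2 or limma under any of the alternatives, and the lowest adjusted p was 0.215. Of 408 alternative values of the members' 24 differences, 345 kept their sign and 63 did not; 8 of the 24 kept it throughout, among them miR-106b-5p with either caerulein dose and miR-106b-3p between the TLC-S doses. For the others the cause was not tested. Counts of all miRNAs called moved as follows. For caerulein 100 nM, DESeq2 called 1. For TLC-S 62.5 uM against control (2), the count was 1 with library totals and with a pseudocount of 10 in limma, 0 with 2 groups alone and with a pseudocount of 1, 4 with DESeq2 and 5 without a filter; leaving out 1 library gave 1 to 2. Between the TLC-S doses (4), it was 2 with RLE, upper quartile scaling, the 3 most abundant miRNAs removed or a pseudocount of 10 in limma, and 1 with a mean CPM of at least 10; leaving out 1 library gave 1 to 2. The F test (3) called 10 without a filter, 1 with a mean CPM of at least 10, and 1 to 4 with 1 library left out. DESeq2, with a likelihood ratio test over the 5 groups in place of the F test, called 7.

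With the sample code series as a replicate block, the counts were 5 for TLC-S 62.5 uM against control and 6 for the F test; the block also gave miR-25-3p log2 differences of -0.0047 with caerulein 100 nM and -0.0068 with TLC-S 250 uM, and 0.020 for miR-106b-3p between the caerulein doses. Correlations of deviations within a code series had a median of 0.0988 (15 of 30 pairs over 0.1), beside -0.0235 between series (7 of 60 pairs over 0.1). Of the 15 libraries, 10 correlated best with their own series. This is a hint of pairing that the labels neither state nor exclude. The members' mean log2 deviations from group means, for the series of replicates 1, 2 and 3 in turn, were as follows. They were 0.22, -0.12 and -0.10 for miR-93-5p, and -0.044, 0.28 and -0.24 for miR-106b-3p. For miR-106b-5p they were -0.17, 0.19 and -0.019, and for miR-25-3p 0.025, 0.071 and -0.096. These deviations were not tested.

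The remaining log2 differences that changed sign were these. For miR-25-3p with caerulein 100 nM, -0.010 with RLE, -0.011 with DESeq2, -0.012 with the 3 most abundant removed and -0.025 with a mean CPM of at least 10; with caerulein 100 pM, -0.054 with library totals, and -0.042 and -0.041 with limma at the pseudocounts of 1 and 10; with TLC-S 250 uM, -0.0012 with a mean CPM of at least 10. Between doses of caerulein miR-25-3p stood at 0.14 with library totals and with either pseudocount, and between doses of TLC-S at 0.0042 with the 3 most abundant removed. For miR-93-5p, -0.11 with library totals and -0.12 with limma at either pseudocount in caerulein 100 pM; in TLC-S 250 uM, 0.013 with 2 groups alone, and 0.0074 and 0.0068 with limma; between caerulein doses, 0.24 (library totals), 0.00057 (no filter), 0.0026 (2 groups alone), 0.27 and 0.26 (limma). For miR-106b-5p in TLC-S 62.5 uM, 0.0086 (RLE), 0.0088 (DESeq2), 0.072 (library totals), 0.058 and 0.055 (limma); between TLC-S doses, -0.0066 (library totals). For miR-106b-3p between caerulein doses, 0.31 (library totals), 0.0057 (no filter), 0.00085 (mean CPM of at least 10), 0.013 (2 groups alone), 0.35 and 0.30 (limma).

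Leaving out 1 library at a time gave these ranges of log2 differences. miR-106b-3p ran from -0.18 to 0.37 between caerulein doses and from -0.012 to 0.56 in caerulein 100 pM. miR-106b-5p ran from -0.25 to 0.43 between TLC-S doses, -0.24 to 0.28 in TLC-S 250 uM, -0.39 to 0.29 in TLC-S 62.5 uM and -0.016 to 0.15 between caerulein doses. miR-25-3p ran from -0.23 to 0.058 between TLC-S doses, -0.068 to 0.087 in TLC-S 250 uM, -0.043 to 0.23 in TLC-S 62.5 uM and -0.069 to 0.095 in caerulein 100 nM. miR-93-5p ran from -0.10 to 0.011 in TLC-S 250 uM, -0.12 to 0.062 between caerulein doses and -0.044 to 0.14 in caerulein 100 nM. The ratio of miR-106b-3p to miR-106b-5p ran from -0.072 to 0.86 in TLC-S 62.5 uM, -0.41 to 0.12 in caerulein 100 nM and -0.40 to 0.028 in caerulein 100 pM. That of miR-25-3p to miR-93-5p ran from -0.065 to 0.16 in TLC-S 250 uM, -0.19 to 0.061 in caerulein 100 nM and -0.18 to 0.24 in caerulein 100 pM. That of miR-93-5p to miR-106b-5p ran from -0.23 to 0.21 in TLC-S 250 uM and -0.24 to 0.86 in TLC-S 62.5 uM. Values that kept their sign also moved. miR-106b-3p ran from 0.15 to 0.54 in caerulein 100 nM, 0.23 to 0.43 in TLC-S 62.5 uM and -0.61 to -0.24 in TLC-S 250 uM. miR-106b-5p ran from 0.39 to 0.74 in caerulein 100 nM and 0.34 to 0.65 in caerulein 100 pM. miR-25-3p ran from 0.031 to 0.30 in caerulein 100 pM and -0.26 to -0.014 between caerulein doses. miR-93-5p ran from 0.056 to 0.21 in caerulein 100 pM, 0.058 to 0.46 in TLC-S 62.5 uM and -0.51 to -0.097 between TLC-S doses. With library totals, miR-106b-5p between caerulein doses was 0.34 and miR-25-3p in TLC-S 62.5 uM was 0.22. Depth limits miR-106b-3p most, with 33 to 212 counts per library.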
